A study of Bos taurus with 4 samples.

Results

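Transcripts of the factors that carry out and regulate protein synthesis were examined in bovine (Bos taurus) 8- to 16-cell embryos collected on day 3 from insemination. The members were the rows of the deposited table whose gene symbol begins with EIF1 to EIF6, EEF1, EEF2, ETF1, GSPT, PABPC or PAIP, with EIF1AY and EIF2AK2 left out. This gave 65 of the 14517 rows, from 63 genes. A further 11 genes with such symbols, EEF1AKMT2, EIF2AK4, EIF2B5, EIF3F, EIF4E1B, EIF4ENIF1, EIF4G1, EIF4G3, EIF5B, PABPC1L and PABPC4L, were not analysed here.

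The 2 NC libraries came from zygotes given negative control siRNAs, and the 2 KDM5_KD libraries from zygotes given siRNAs that target KDM5A, KDM5B and KDM5C, which encode enzymes that remove methyl groups from histone H3, and polyadenylated RNA was sequenced at the 8- to 16-cell stage. No genotype, strain or further treatment is given for either group, and nothing in the labels says whether libraries of a group came from separate pools of embryos, so p-values measure only the spread between these libraries. The labels of KDM5_KD replicate 2 disagree, since the title gives KDM5 and the treatment field gives siRNAs for KDM6 genes. In that library KDM5A was at 10.1 FPKM and KDM5C at 17.8 FPKM, against 10.5 and 15.1 FPKM in KDM5_KD replicate 1, 28.4 and 28.1 FPKM in NC replicate 1 and 27.1 and 40.6 FPKM in NC replicate 2. The log2 difference between groups was -1.35 for KDM5A and -0.999 for KDM5C, with limma adjusted p of 0.0333 and 0.123, and KDM5B was not analysed here. KDM6A was at 9.29 FPKM in that library, 7.90 FPKM in KDM5_KD replicate 1, and 7.63 and 11.3 FPKM in the NC libraries.

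Levels are given in FPKM, read fragments normalized for transcript length and for library size, so that genes can be compared per length. Read counts are unknown. From the steps of the lowest values, NC replicate 2 was the deepest library, at 1.25 and 1.28 times the depth of KDM5_KD replicates 1 and 2, and NC replicate 1 had 0.683 times its depth. Oocyte and cleavage-stage genes fixed as a check of the labelled material were present, with 13 rows of 12 genes summing to 604 and 471 FPKM in NC and to 716 and 834 FPKM in KDM5_KD. All 13 had differences above 0 (11 with median-ratio scaling, quantile normalization or a common sum), and 7 lay wholly above NC. Of all rows tested, 62.6% had differences above 0 and 35.1% lay wholly above NC. Of 16 cumulus and granulosa cell markers, 12 were tested and 10 lay wholly above NC in KDM5_KD, with a median difference of 0.96. The 16 summed to 65.0 and 49.96 FPKM in NC and to 129 and 109 FPKM in KDM5_KD. LUM, a matrix proteoglycan, was at 4.02 and 5.12 FPKM in NC, against 23.8 and 15.6 FPKM in KDM5_KD (a difference of 1.87, with a limma adjusted p of 0.0610), and CYP11A1, a steroid-making enzyme, was at 8.41 and 3.79 FPKM, against 12.5 and 17.2 FPKM (1.22). COL1A2, VCAN and CD44 had differences of 1.40, 1.36 and 1.24, while 2 of the 12 tested markers were below 0, down to -0.42. Among these 2 was TNFAIP6, at -0.05, and the groups of both overlapped. FSHR, which defines granulosa cells, was listed at 0 in both NC libraries and at 0.0216 and 0.0443 FPKM in KDM5_KD, and CYP19A1 reached at most 0.0602 FPKM in any library. The 5 sperm markers summed to at most 1.52 FPKM. No row of these lists passed the limma test. In such bulk samples fewer cells of a type and less RNA per cell cannot be told apart, and the part of these marker differences in the values below was not tested.

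Translation starts when eIF2, carrying GTP and the initiator tRNA, joins the small ribosomal subunit together with eIF1, eIF1A, eIF3 and eIF5, while the eIF4 factors bind the cap of the mRNA and unwind its leader. The elongation factors eEF1 and eEF2 then bring in aminoacyl-tRNA and move the ribosome along, and the release factors encoded by ETF1 and GSPT1 end the chain. Before its own genome is active, an embryo makes protein from mRNA stored in the oocyte, and the length of the poly(A) tail, bound by PABPC proteins, is a main control of which stored mRNA is translated.

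Most of these transcripts were abundant and differed little between control and KDM5 knockdown embryos. The 63 rows with a mean of at least 1 FPKM over the 4 libraries were tested, and EEF1A2 and PABPC5 were below that level. None of the 63 passed a limma adjusted p of 0.05 in either direction, where 0.19% of the 8970 rows tested in the whole table were called higher and 0.0892% lower (17 and 8 rows, or 8 and 9 rows with libraries rescaled to a common sum of FPKM). Without adjustment, 1 member row, PAIP1, had a limma p under 0.05 and a positive difference, and none had a negative one. Of all rows tested, 14.3% and 3.12% did, and of the 2243 rows with the highest level 176 and 124 did. The member count with a negative difference depended on scaling. It was 7 with median-ratio scaling and 10 with a common sum, where 7.56% and 6.38% of all rows had one, 3 without microRNA rows (3.6% of all rows) and 0 with quantile normalization (7.28%). PAIP1 (PABPC-interacting protein 1, a stimulator of translation) had a difference of 0.70 (SE 0.147) on the log2 scale, the largest with the pseudocount of 1, while with a pseudocount of 0.1 the scarce EEF2K exceeded it, at 0.80 against 0.70. All differences given are KDM5_KD minus NC in log2(FPKM + 1), which understates those of low rows.

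Most member rows had intervals within a 2-fold change, taking the scaling of the FPKM as deposited. The 95% limma interval of the difference, not adjusted over rows, lay within 1 log2 unit of 0, a 2-fold change either way, for 57 of the 63 member rows, or 90.5%. The same held for 77.6% of all rows tested and for 92.6% of the 2243 rows with the highest level. The exceptions were EIF2AK3, EIF4EBP3, EIF5A2, EEF2K, PAIP1 and the lower of the 2 EEF1D rows. The median difference of the members was -0.05, with 25 rows above 0 and 38 below (37 and 26 without NC replicate 2), against a median of 0.09 over all rows, of which 62.6% were above 0. Median-ratio scaling shifted the median of all rows by -0.13 and quantile normalization by -0.14, and the members' median then lay 0.16 and 0.02 below that of all rows, against 0.14 below with the FPKM as deposited.

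In KDM5_KD 15 member rows lay wholly above NC and 16 wholly below it, while 35.1% of all rows lay above and 15.6% below. Of the 2243 rows with the highest level, where 45 of the member rows fell, 470 lay above and 550 below. The split of the member rows depended on scaling. It was 5 and 35 rows with median-ratio scaling, where 23.8% of all rows lay above and 28.2% below. With quantile normalization it was 10 and 20 rows (20.9% and 28.1% of all rows). A common sum gave 7 and 28 rows (24.2% and 25.5%). When that sum was taken without microRNA rows, it was 14 and 20 (32.8% and 17.3%). The difference between group means exceeded both gaps between replicates for 21 of the 63 member rows. It did so for 37.3% of all rows and for 32.8% of the 2243 rows with the highest level.

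**Figure D1:**
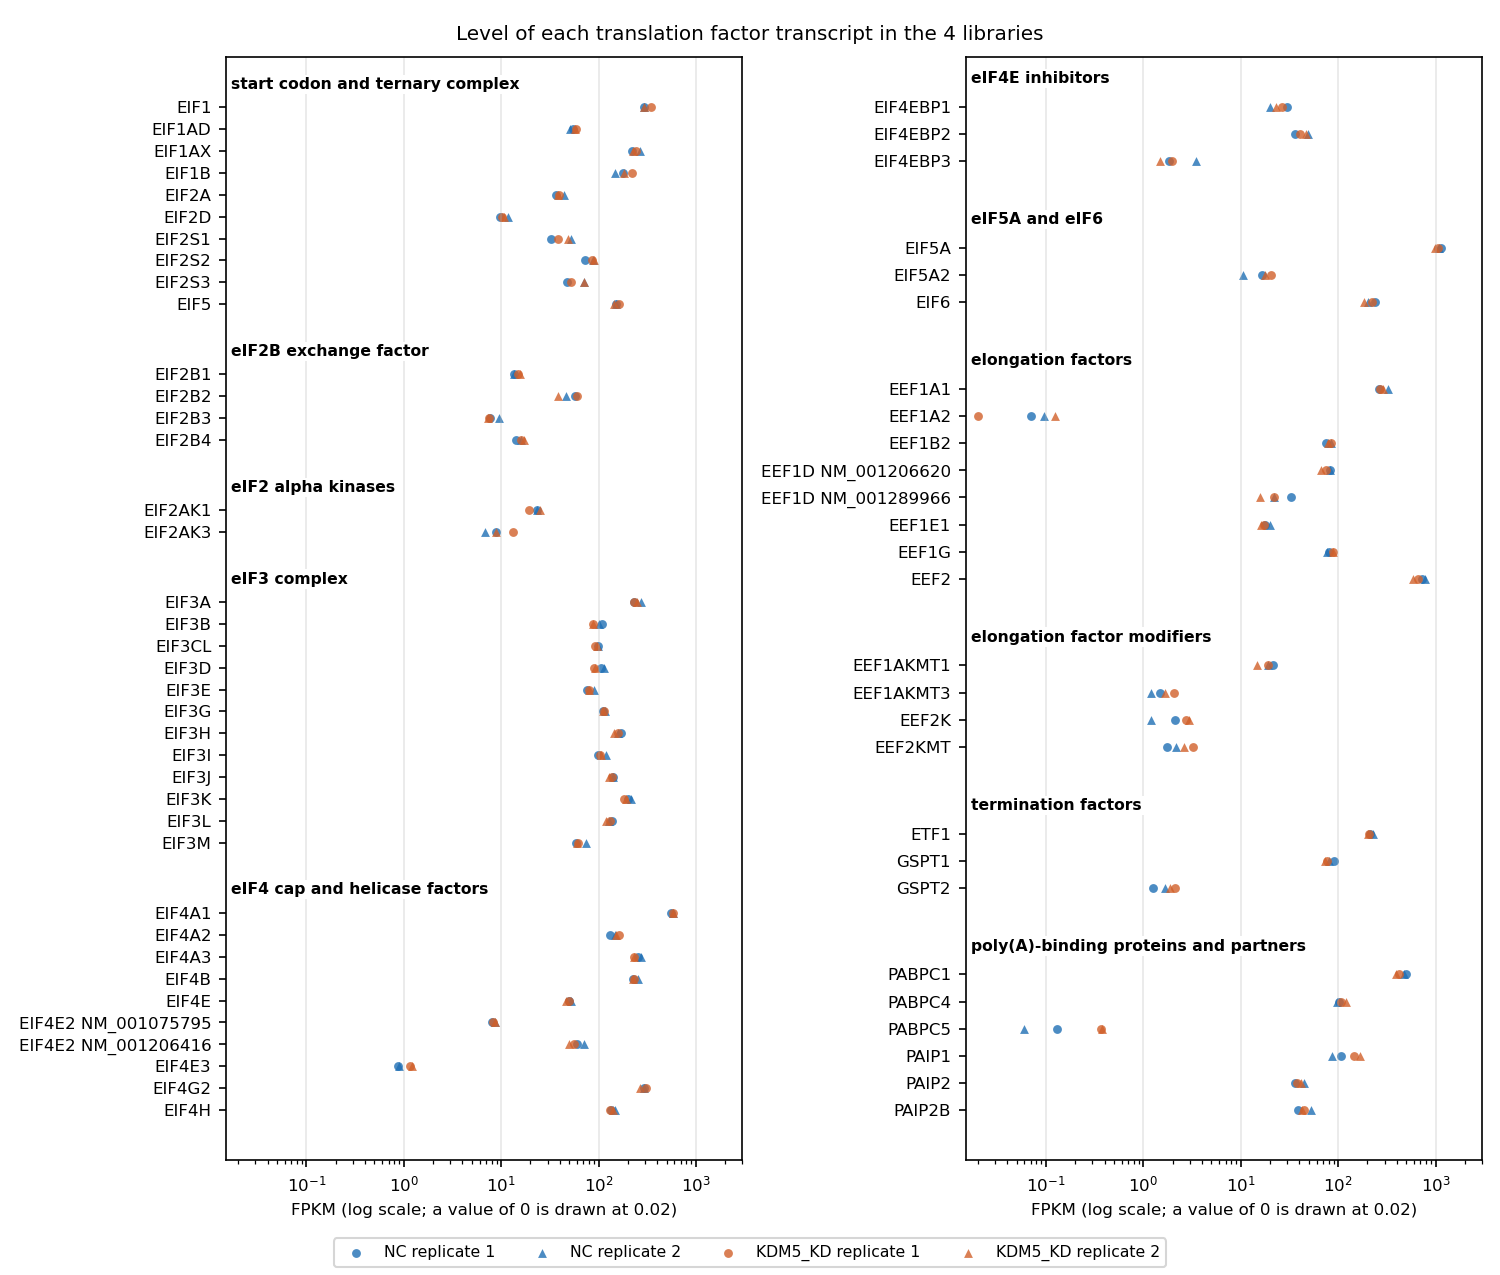
FPKM (log scale) of each of the 65 translation factor rows in the 4 libraries, grouped by role, with NC in blue, KDM5_KD in orange, replicate 1 as circles and replicate 2 as triangles. Levels run from EEF1A2 and PABPC5, below 1 FPKM in every library, to EIF5A, between 983 and 1138 FPKM, with the value of 0 for EEF1A2 drawn near the left edge, and for most genes the 4 points nearly coincide on this scale.

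The members ranked high in these embryos. Their median level was 80.5 FPKM among the 63 rows tested, where the 8970 rows tested had a median of 10.5 FPKM, and 45 member rows were among the 2243 with the highest level, above 28.7 FPKM. The 65 rows summed to 8321 and 8598 FPKM in NC and to 8273 and 7904 FPKM in KDM5_KD. This was 2.89% and 3.08% of the FPKM of each NC library and 2.85% and 2.77% of each KDM5_KD library once microRNA rows were left out. Differences among all rows varied with level, so the members are set beside rows of their own level. Among those 2243 rows the 45 member rows had a median difference of -0.05, with 14 above 0 and 31 below, while all of them together had a median of -0.02 and 46.6% above 0. Among as many rows with the lowest level, at most 3.71 FPKM, the 6 member rows had a median of 0.29, with 5 above 0, while all rows there had a median of 0.25 and 76.1% above 0.

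**Figure D2:**
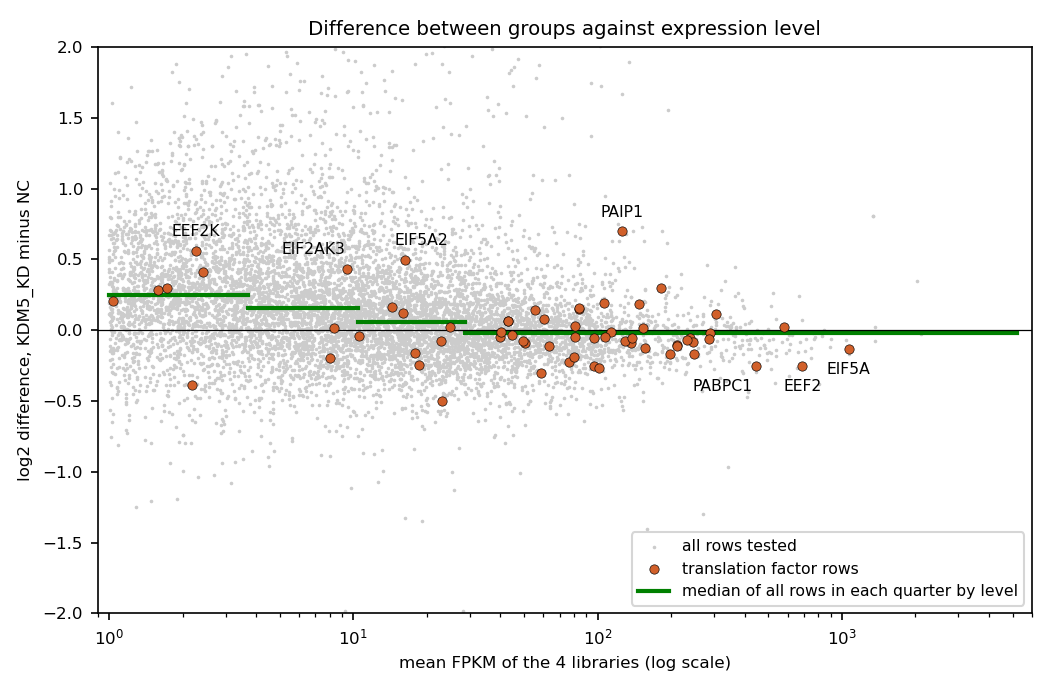
Log2 difference between KDM5_KD and NC (vertical axis) against the mean FPKM of the 4 libraries (log scale), for all 8970 rows tested in grey and for the 63 translation factor rows in orange, with the median of all rows in each of 4 level classes as green bars. 60 grey rows lie beyond the axis limit of 2, and among the orange points PAIP1, at 0.70, stands above the other factors of its level.

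In the group of start codon and eIF2 ternary complex factors, 8 of 10 rows overlapped between NC and KDM5_KD. So did 4420 of all 8970 rows tested. EIF1AD, EIF2A and EIF2D were placed in this group by symbol. The 2 rows that did not overlap were EIF1AD and EIF1B, both wholly above NC, where 35.1% of all rows lay. EIF1, which guards start codon choice, was at 293 and 292 FPKM in NC, against 342 and 292 FPKM in KDM5_KD, a difference of 0.11 (SE 0.124, limma adjusted p of 0.693). Its paralog EIF1B was at 178 and 148 FPKM in NC, against 222 and 181 FPKM in KDM5_KD. Both knockdown libraries of EIF1B lay above both controls, the nearest pair being 178 and 181 FPKM, and its difference of 0.30 (SE 0.154) was the largest positive difference of the 10 (limma adjusted p of 0.380). EIF1AX, which encodes eIF1A, was at 221 and 265 FPKM in NC, against 242 and 225 FPKM in KDM5_KD. Its difference of -0.05 was smaller in size than the gap of 0.26 between its NC replicates, and it turned positive after quantile normalization. Over the 10 rows 7 differences were above 0, but 3 were with median-ratio scaling or a common sum.

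The 3 subunits of eIF2 did not separate the groups. EIF2S1, the alpha subunit whose phosphorylation slows initiation, was at 32.7 and 52.4 FPKM in NC, against 38.6 and 48.7 FPKM in KDM5_KD. EIF2S3, the gamma subunit that binds GTP and tRNA, was at 47.2 and 70.4 FPKM in NC, against 52.1 and 70.9 FPKM in KDM5_KD. EIF2S2, the beta subunit, was at 72.1 and 86.7 FPKM in NC, against 84.9 and 90.9 FPKM in KDM5_KD. For each subunit NC replicate 1 was the lowest of the 4 libraries. The ratio of EIF2S3 to EIF2S1 lay between 1.34 and 1.46 in the 4 libraries and that of EIF2S2 to EIF2S1 between 1.66 and 2.21. The group differences of EIF2S3 and EIF2S1 were 0.08 and 0.07, with 95% intervals of -0.50 to 0.65 and -0.53 to 0.66, and both turned negative with median-ratio scaling and with a common sum. EIF5, the GTPase activator of eIF2, was at 152 FPKM in both NC libraries and at 162 and 145 FPKM in KDM5_KD.

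The 4 measured subunits of eIF2B, which recharges eIF2 with GTP, differed in direction and none passed. EIF2B2 was the highest, at 56.9 and 46.4 FPKM in NC, against 60.0 and 38.5 FPKM in KDM5_KD, and its 2 knockdown values enclosed the control values. EIF2B1 was at 13.5 FPKM in both NC libraries and at 15.0 and 15.5 FPKM in KDM5_KD, and EIF2B4 was at 14.4 and 16.1 FPKM and at 16.1 and 17.2 FPKM. EIF2B3 was at 7.74 and 9.55 FPKM in NC, against 7.503 and 7.29 FPKM in KDM5_KD. EIF2B1 and EIF2B4 thus lay above NC and EIF2B3 below it, with differences of 0.16, 0.12 and -0.19 and limma adjusted p between 0.620 and 0.725, and the EIF2B4 difference reversed with median-ratio scaling.

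Among the kinases that phosphorylate eIF2 alpha, EIF2AK3 (PERK, activated by unfolded protein in the endoplasmic reticulum) was at 8.79 and 6.84 FPKM in NC, against 13.1 and 8.90 FPKM in KDM5_KD. The groups were barely separated, and the difference of 0.43 (SE 0.238) had a limma adjusted p of 0.407. It was 0.18 without KDM5_KD replicate 1 and 0.69 without KDM5_KD replicate 2. EIF2AK1, the heme-regulated kinase, was at 23.3 and 23.4 FPKM in NC, against 19.4 and 25.0 FPKM in KDM5_KD, so its groups overlapped.

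The eIF3 complex, the scaffold of the initiation complex on the small subunit, was the group with the most uniform differences. All 12 measured subunit rows had differences below 0, between -0.26 and -0.02 with a median of -0.09. All 12 were also below 0 with median-ratio scaling, quantile normalization and a common sum, and none passed the test. In 6 of the 12 both knockdown libraries were below both controls, and none lay wholly above. Of the 2243 rows with the highest level, where all 12 fell, 1198 had differences below 0. Among these 2243 rows 550 lay wholly below NC and 470 wholly above. Without NC replicate 2, 5 of the 12 differences were above 0. Summed over the 12 rows the complex was at 1542 and 1630 FPKM in NC, against 1469 and 1461 FPKM in KDM5_KD.

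EIF3D, a subunit that can bind the cap of some mRNAs, had the most negative difference of the complex. It was at 107 and 114 FPKM in NC, against 90.4 and 92.8 FPKM in KDM5_KD, a difference of -0.26 (SE 0.111, limma adjusted p of 0.296). EIF3B, a core subunit, was at 109 and 102 FPKM in NC, against 87.7 and 88.7 FPKM in KDM5_KD (-0.25, SE 0.112, limma adjusted p of 0.317). In both genes the difference between groups exceeded the gap between replicates of either group. EIF3A, the largest subunit and the most abundant row of the complex, overlapped between groups, at 231 and 276 FPKM in NC, against 232 and 247 FPKM in KDM5_KD. EIF3G was nearest to no difference, at 111 and 117 FPKM and at 114 and 112 FPKM. The levels of the 12 rows spanned 63.5 FPKM for EIF3M to 246 FPKM for EIF3A as means of the 4 libraries. EIF3CL, annotated as a copy of the c subunit, has near-identical relatives among which reads may be divided, which makes its value uncertain.

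**Figure D3:**
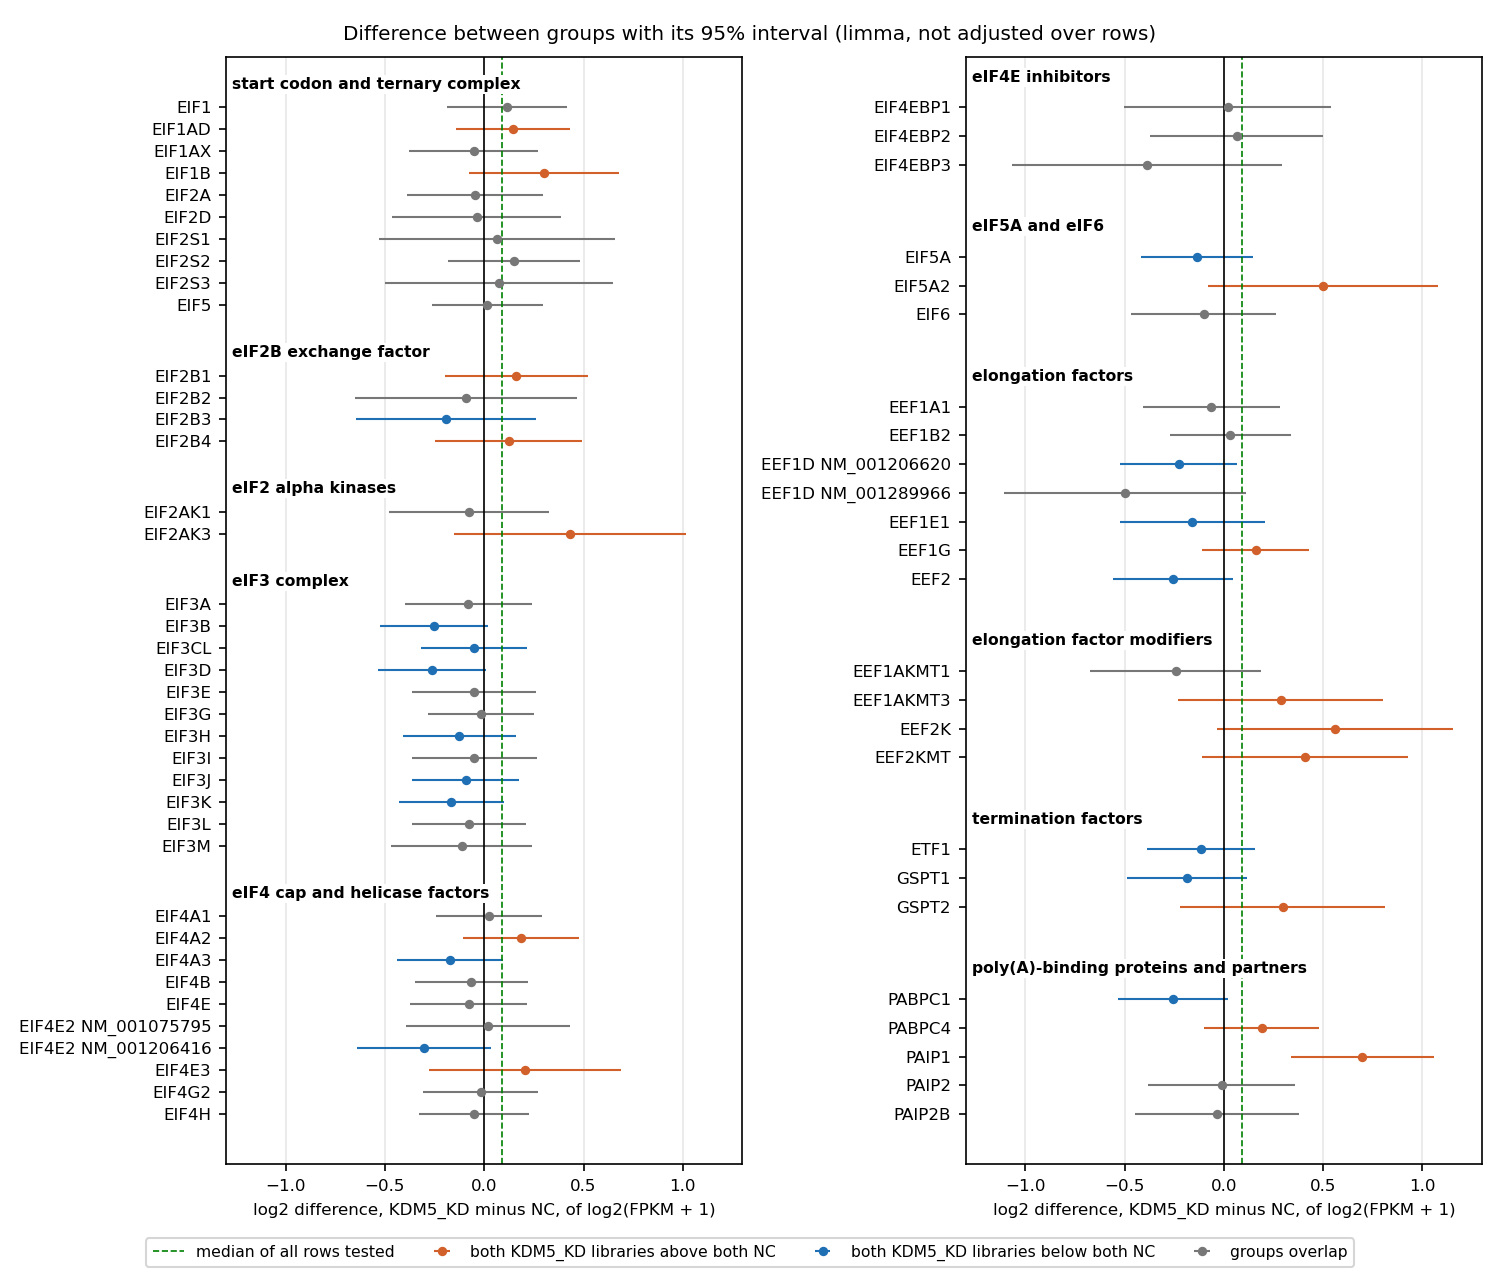
Log2 difference between KDM5_KD and NC (horizontal axis, points) with its 95% limma interval (bars) for the 63 translation factor rows tested, grouped by role, colored by whether both KDM5_KD libraries lay above both NC libraries (orange), below both (blue) or overlapped with them (grey), and with the median of all rows, 0.09, as a dashed line. PAIP1 is the only row whose interval leaves out 0, and all 12 eIF3 rows lie to the left of 0.

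Cap-binding and helicase factors of the eIF4 class gave 2 rows of 10 wholly above NC and 2 wholly below. Of all rows tested, 35.1% and 15.6% did. EIF4A1, the main RNA helicase of initiation, was the most abundant, at 559 and 586 FPKM in NC, against 575 and 588 FPKM in KDM5_KD, and its difference of 0.02 turned negative with median-ratio scaling and with a common sum. EIF4A2, its close paralog, was at 130.0 and 147 FPKM in NC, against 163 and 152 FPKM in KDM5_KD. EIF4A3, which serves in the exon junction complex rather than in initiation, was at 252 and 272 FPKM in NC, against 233 and 232 FPKM in KDM5_KD. The differences of EIF4A2 and EIF4A3 were thus opposite in sign, at 0.19 (SE 0.120) and -0.17 (SE 0.110), with limma adjusted p of 0.478 and 0.476, and in neither gene did the groups overlap. EIF4G2, a scaffold protein that lacks the eIF4E-binding part, was at 291 and 290.3 FPKM in NC, against 307 and 268 FPKM in KDM5_KD.

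EIF4E, the cap-binding protein itself, was at 49.6 and 51.8 FPKM in NC, against 49.7 and 46.2 FPKM in KDM5_KD, far below EIF4A1, and its groups overlapped. EIF4E2, a cap-binding repressor also known as 4EHP, had 2 rows. The higher (NM_001206416) was at 59.9 and 70.3 FPKM in NC, against 55.6 and 49.5 FPKM in KDM5_KD, the most negative difference of the class (-0.30, SE 0.139, limma adjusted p of 0.330), while the lower (NM_001075795) lay between 8.06 and 8.60 FPKM. Summed, EIF4E2 was at 68.0 and 78.9 FPKM in NC, against 63.8 and 58.1 FPKM in KDM5_KD (-0.26, SE 0.132, limma adjusted p of 0.366). EIF4E3, a further relative, was the lowest row tested, at 0.883 and 0.905 FPKM in NC, against 1.15 and 1.22 FPKM in KDM5_KD. Its difference of 0.21 turned negative after quantile normalization.

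The 3 inhibitors that sequester eIF4E overlapped between groups. EIF4EBP1 was at 29.7 and 19.97 FPKM in NC, against 26.6 and 23.0 FPKM in KDM5_KD, and EIF4EBP2 was at 36.1 and 48.5 FPKM and at 40.6 and 47.2 FPKM. EIF4EBP3 was far lower, at 1.85 and 3.45 FPKM in NC, against 1.97 and 1.496 FPKM in KDM5_KD. Its difference of -0.39 (SE 0.278) was -0.064 without NC replicate 2 and -0.71 without NC replicate 1. For all 3 the NC replicates spanned a wider range than the KDM5_KD replicates, and the differences of EIF4EBP1 and EIF4EBP2, 0.02 and 0.06, changed sign with median-ratio scaling and with a common sum, and that of EIF4EBP1 also with quantile normalization and with microRNA rows left out.

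EIF5A, whose hypusine-bearing protein helps the ribosome past stalling sequences, was the most abundant member, at 1138 and 1097 FPKM in NC, against 1055 and 983 FPKM in KDM5_KD. Both knockdown libraries were below both controls, by a difference of -0.13 (SE 0.115, limma adjusted p of 0.601). Its paralog EIF5A2 went the other way, at 16.6 and 10.4 FPKM in NC, against 20.6 and 17.6 FPKM in KDM5_KD. That difference was 0.50 (SE 0.237, limma adjusted p of 0.345), with NC replicate 1 close below KDM5_KD replicate 2. It was 0.19 without NC replicate 2 and 0.81 without NC replicate 1. EIF5A exceeded EIF5A2 by 68.5 and 105 times in the NC libraries and by 51.3 and 55.7 times in the KDM5_KD libraries. EIF6, which keeps the ribosomal subunits apart, was at 238 and 200.4 FPKM in NC, against 224 and 185 FPKM in KDM5_KD, and its groups overlapped.

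Among the 7 tested rows grouped as elongation factors, 3 lay wholly below NC and 1 above. These 3 include EEF1E1, placed here by its symbol and not by its function. Over all rows tested, 15.6% lay wholly below and 35.1% above. Of the 2243 rows with the highest level, 550 and 470 did. EEF2, the translocation factor, was at 723 and 777 FPKM in NC, against 669 and 589.6 FPKM in KDM5_KD, a difference of -0.26 (SE 0.124, limma adjusted p of 0.351). The knockdown libraries thus held 83.9% of the mean control level. EEF1A1, which delivers aminoacyl-tRNA, was at 260.3 and 325 FPKM in NC, against 269 and 288 FPKM in KDM5_KD, with both knockdown values between the control values. The muscle and neuron form EEF1A2 was near absent, with 0.0705 and 0.0962 FPKM in NC and 0 and 0.123 FPKM in KDM5_KD.

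The subunits of the eEF1B complex, which recharges eEF1A, did not share a direction. EEF1G was at 80.9 and 77.1 FPKM in NC, against 88.4 and 88.2 FPKM in KDM5_KD, the most positive difference of the elongation factors (0.16, SE 0.111, limma adjusted p of 0.511). EEF1D had 2 rows, at 82.2 and 83.0 FPKM (NM_001206620) and at 33.0 and 21.8 FPKM (NM_001289966) in NC, against 74.9 and 66.3 FPKM and 22.0 and 15.8 FPKM in KDM5_KD. The lower row had a difference of -0.50 (SE 0.250, limma adjusted p of 0.367), which was -0.21 without NC replicate 1 and -0.79 without NC replicate 2, and its groups overlapped. With both rows summed EEF1D was at 115 and 105 FPKM in NC, against 96.9 and 82.2 FPKM in KDM5_KD (-0.30, SE 0.133, limma adjusted p of 0.313). EEF1B2 was at 74.4 and 85.0 FPKM and at 83.8 and 78.9 FPKM, with overlapping groups.

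Enzymes that modify the elongation factors were scarce, and 3 of the 4 rows lay wholly above NC in KDM5_KD. Of all rows tested 35.1% did. These 3 rows were among those of the lowest level, at most 3.71 FPKM, where 76.1% of all rows had differences above 0. EEF2K, the kinase that inactivates eEF2, was at 2.12 and 1.21 FPKM in NC, against 2.76 and 2.97 FPKM in KDM5_KD. Its difference of 0.56 (SE 0.243, limma adjusted p of 0.311) ran from 0.24 with quantile normalization to 0.80 with a pseudocount of 0.1, and was 0.31 without NC replicate 2 and 0.81 without NC replicate 1. EEF2KMT, a methyltransferase of eEF2, was at 1.74 and 2.14 FPKM in NC, against 3.22 and 2.61 FPKM in KDM5_KD. EEF1AKMT1, a methyltransferase of eEF1A and the only one of the 4 above 5 FPKM, was at 21.3 and 19.1 FPKM in NC, against 19.2 and 14.8 FPKM in KDM5_KD (-0.24, SE 0.176, limma adjusted p of 0.528). After quantile normalization 2 of the 4 differences were above 0 and 2 below.

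Both components of the release complex lay wholly below NC. So did 15.6% of all rows tested and 550 of the 2243 rows with the highest level, where both fell. ETF1, which reads the stop codon, was at 211 and 230.0 FPKM in NC, against 206 and 200.5 FPKM in KDM5_KD. GSPT1, the GTPase that works with it, was at 91.7 and 79.9 FPKM in NC, against 76.3 and 73.9 FPKM in KDM5_KD. These differences were -0.11 (SE 0.111) and -0.19 (SE 0.124), with limma adjusted p of 0.646 and 0.490. GSPT2, the retrogene copy of GSPT1, was at 1.25 and 1.67 FPKM in NC, against 2.12 and 1.90 FPKM in KDM5_KD, with a difference of 0.30 (SE 0.211, limma adjusted p of 0.520) that was -0.0082 after quantile normalization.

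Among the poly(A)-binding proteins and their partners, PABPC1 lay below NC in KDM5_KD while PABPC4 and PAIP1 lay above. PABPC1, the main cytoplasmic poly(A)-binding protein, was at 502 and 469 FPKM in NC, against 420.4 and 392 FPKM in KDM5_KD. All 4 values were ordered by group, and the difference of -0.26 (SE 0.113) had a limma adjusted p of 0.317. PABPC4 lay on the other side, at 102 and 96.3 FPKM in NC, against 108 and 119.6 FPKM in KDM5_KD (0.19, SE 0.118, limma adjusted p of 0.460). The ratio of PABPC1 to PABPC4 was 4.91 and 4.87 in NC, against 3.91 and 3.28 in KDM5_KD. Compared as a ratio within each library, the values do not depend on rescaling a library by a constant, and the shift was not tested. PABPC5 was at 0.131 and 0.0595 FPKM in NC, against 0.371 and 0.380 FPKM in KDM5_KD, and was left out by the filter. Without the filter it had the lowest adjusted p of the members, 0.249 by limma.

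PAIP1, which bridges PABPC1 and the eIF4A and eIF3 factors, was at 107 and 86.1 FPKM in NC, against 147 and 166 FPKM in KDM5_KD. Both knockdown libraries stood clear of both controls, and the mean of KDM5_KD was 162% of that of NC. The difference was 0.70 (SE 0.147, 95% interval 0.34 to 1.06), with an unadjusted p of 0.00313 and a limma adjusted p of 0.123. The row did not pass in any alternative setting that kept all 4 libraries. Its lowest limma adjusted p there was 0.0948, with a robust variance model. The difference was 0.85 without NC replicate 1, which left a lone control library. Without KDM5_KD replicate 2, the library with conflicting labels, the difference was 0.61. The antagonists of PABPC1 showed no such pattern. PAIP2 was at 36.2 and 44.7 FPKM in NC, against 38.1 and 41.7 FPKM in KDM5_KD, and PAIP2B was at 38.9 and 52.3 FPKM and at 45.1 and 42.9 FPKM. PAIP1 exceeded PAIP2 by 2.95 and 1.93 times in the NC libraries and by 3.85 and 3.98 times in the KDM5_KD libraries, and PABPC1 exceeded PAIP1 by 4.71 and 5.45 times in NC and by 2.87 and 2.37 times in KDM5_KD.

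**Figure D4:**
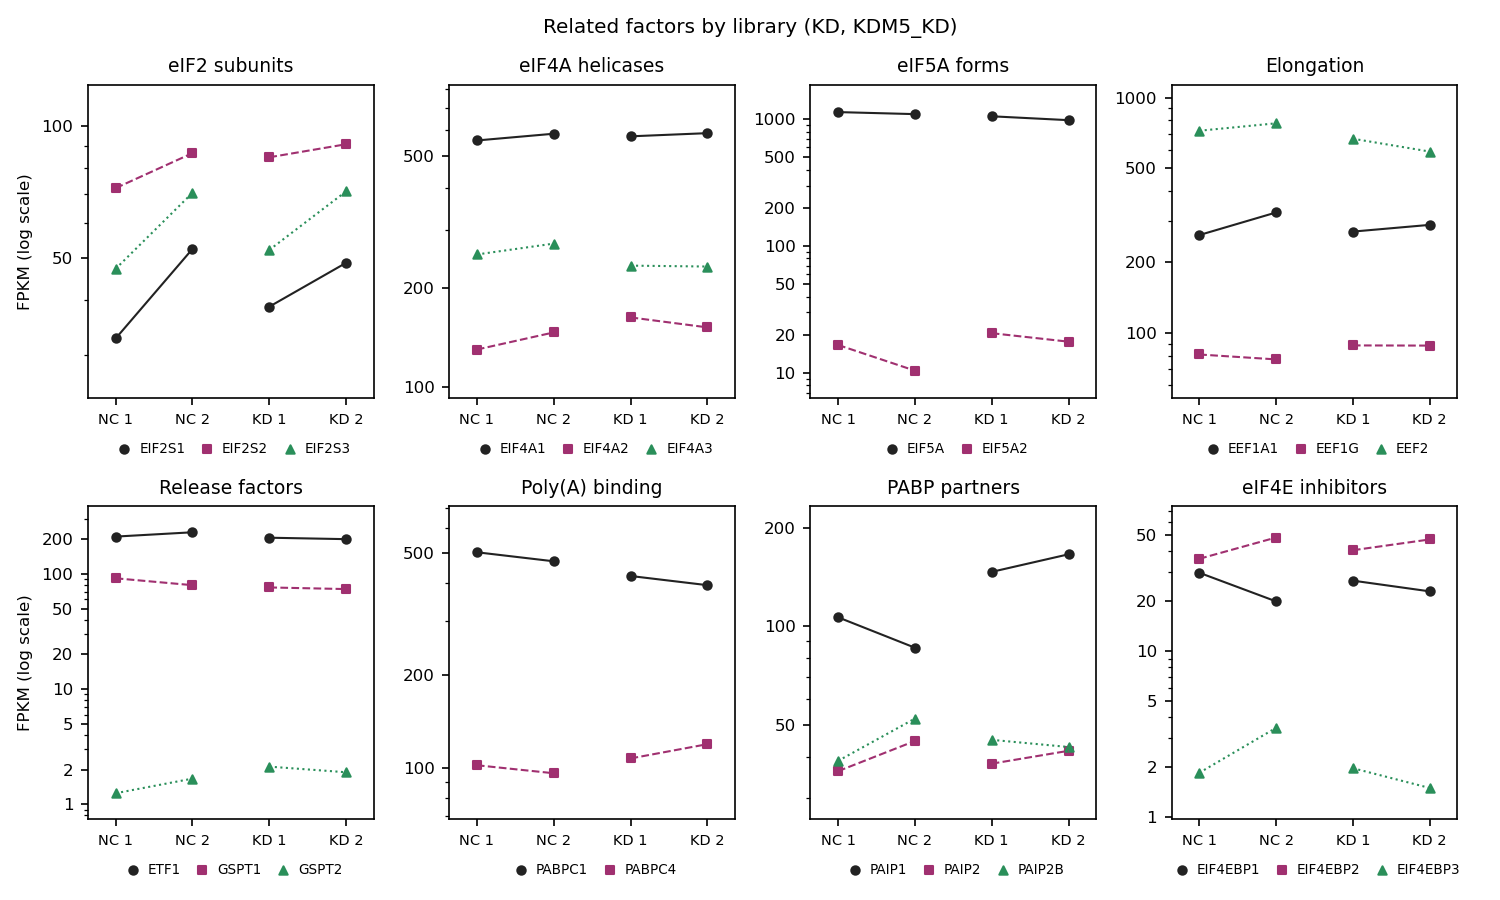
FPKM (log scale) of related factors in NC replicates 1 and 2 and KDM5_KD replicates 1 and 2, with lines joining the replicates of a group. The eIF2 subunits differ more between the NC replicates than between groups, from 32.7 to 52.4 FPKM for EIF2S1 in NC. PABPC1 and PAIP1 are split by group in opposite directions, PAIP1 lying at 86.1 and 107 FPKM in NC, against 147 and 166 FPKM in KDM5_KD.

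Several members encode mRNAs with a terminal oligopyrimidine tract, a pyrimidine run at the cap through which mTOR controls their translation. A list of such genes gave 11 rows here (EEF1A1, EEF1A2, EEF1B2, EEF1D, EEF1G, EEF2, EIF3E, EIF3H, EIF4B and PABPC1). It may leave out other members with such a tract. Of the 11 rows, 10 were tested and none passed. Their differences were below 0 in 8 rows and above 0 in 2, with a median of -0.10, and 4 lay wholly below NC and 1 above. Of all rows tested, 15.6% lay wholly below and 35.1% above, and of the 2243 rows with the highest level 550 and 470 did. With median-ratio scaling or a common sum 9 of the 10 rows were below 0, and without NC replicate 2 the split was 5 and 5. The most negative was the lower EEF1D row and the most positive EEF1G.

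Genes that act beside these factors were counted in the same fit, and none of them passed either. Of 21 genes of cytoplasmic aminoacyl-tRNA synthetases and their scaffolds, 11 had differences above 0 and 10 below (9 and 12 with median-ratio scaling or a common sum). AIMP2, a scaffold of the multisynthetase complex, was the most negative, at 57.4 and 57.1 FPKM in NC, against 45.1 and 41.7 FPKM in KDM5_KD (-0.39, SE 0.119, limma adjusted p of 0.194). GARS1, the glycine enzyme, was the most positive, at 7.02 and 7.14 FPKM in NC, against 9.14 and 11.6 FPKM in KDM5_KD (0.49, SE 0.189, limma adjusted p of 0.271). Of 9 genes of mTOR and MNK signalling to eIF4, 5 were above 0 and 4 below (2 and 7 with median-ratio scaling or a common sum, 3 and 6 with quantile normalization). MKNK2, a kinase of eIF4E, was at 66.5 and 58.3 FPKM in NC, against 48.9 and 43.8 FPKM in KDM5_KD (-0.42, SE 0.134, limma adjusted p of 0.206), and DDIT4, an inhibitor of mTOR, was at 7.91 and 7.64 FPKM and at 9.40 and 14.1 FPKM (0.51, SE 0.224, limma adjusted p of 0.313).

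Targets of the integrated stress response, which follows phosphorylation of eIF2 alpha, had differences above 0 in 6 of 8 genes. Their median was 0.14, and the count was 4 with median-ratio scaling and 5 with quantile normalization or a common sum. Over all rows tested the median was 0.09, and 62.6% were above 0. PPP1R15A, which directs the phosphatase that reverses this phosphorylation, was at 43.4 and 48.7 FPKM in NC, against 67.9 and 65.6 FPKM in KDM5_KD (0.53, SE 0.123, limma adjusted p of 0.139). TRIB3 was the most negative at -0.07 and its groups overlapped. Regulators of stored maternal mRNA were above 0 in 16 of 18 rows (10 with median-ratio scaling, 12 with quantile normalization, 11 with a common sum), with a median of 0.26 and 10 rows wholly above NC. MSI1, an RNA-binding protein, was at 8.84 and 5.97 FPKM in NC, against 11.3 and 18.8 FPKM in KDM5_KD (0.91, SE 0.291, limma adjusted p of 0.206). Of 11 recycling and rescue genes, 4 were above 0 and 7 below (7 and 4 without NC replicate 2). DENR, a recycling factor, was at 36.2 and 50.1 FPKM in NC, against 43.5 and 23.6 FPKM in KDM5_KD (-0.40, SE 0.305), and its partner MCTS1 was at 2.55 and 6.22 FPKM and at 3.99 and 7.74 FPKM (0.38, SE 0.418), with limma adjusted p of 0.553 and 0.688.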

How the data were processed

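Polyadenylated RNA of 2 NC and 2 KDM5_KD libraries was measured. The authors deposited FPKM values for RefSeq transcripts, 1 column per library. The submitters' processing notes name Trimmomatic, HISAT2, featureCounts and Cufflinks without versions or roles, and the genome build is not given in the sources used here, so no positions are printed. Symbols came from RefSeq's gene table for ARS-UCD2.0, which gave 14295 of 14517 rows a symbol. Strand-specific counting is not stated, and reads of near-identical copies, common for EEF1A1, EIF1AX, EIF4A1, EIF5A and PABPC1, may be divided between rows.

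Groups and replicate numbers came from sample titles. All 4 libraries were fitted with limma 3.58.1 (R 4.3.3) on log2(FPKM + 1), with a mean-variance trend and no covariates, for rows with a mean of at least 1 FPKM, and p-values were adjusted by Benjamini-Hochberg over 8970 rows. Depth is unknown in reads. Relative depth came from ratios of values between 0.001 and 0.3 FPKM, which cluster at whole-number steps. On 5 simulated tables of 8970 rows, 89% of changes of 2 and 29.2% of changes of 1 on the log2 scale were called. Plots were drawn with matplotlib 3.10.9, and tables were made with numpy 2.4.6 and pandas 2.3.3 under Python 3.11.15.

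The members and lists were chosen with earlier results of these data known. The rule for naming took, in each role group, the highest level and the largest difference in each direction, all members of related sets, and the extremes of each other list. An item that the rule names is not reported here. EIF3B, EIF3CL, EIF3M, EIF5, EIF6, EEF1B2, EEF2KMT and PABPC5 fall outside it and were named after their values were seen. Alternatives were a pseudocount of 0.1, no filter (rows at 0 in every library left out) or a filter at 5 FPKM, 3 scalings, summed or microRNA-free rows, other variance models, a replicate block and leaving out each library. Counts of rows whose groups do not overlap were repeated under scalings after the data were seen.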

Additional observations from a re-analysis of the deposited data

How the results depend on the processing

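No member row passed the limma test with any alternative other than leaving out a library, and 0 to 1 were higher and 0 lower when each library was left out, the 1 being PAIP1 without NC replicate 1. Over all rows, the 17 called higher became 2 without a filter, 11 with a filter at 5 FPKM, 8 with a common sum, 6 without a variance trend, 37 with a robust fit, 8 with the replicate block and 3 to 323 with a library left out, the 323 without NC replicate 1. The 8 called lower became 1 without a filter, 4 with the replicate block and 3 to 17 with a library left out. Nothing in the labels pairs equal replicate numbers, whose deviations had a correlation of 0.229. The replicate block left no member called, with 4 higher and 3 lower at an unadjusted limma p under 0.05. With that block 15.8% of all rows were higher and 4.24% lower at this p. The members' median was -0.19 with median-ratio scaling, -0.17 with a common sum and -0.089 to 0.047 with a library left out, the 0.047 without NC replicate 2. Member rows lying wholly above NC became 5 and 7 with median-ratio scaling and a common sum, where 23.8% and 24.2% of all rows did. Those wholly below became 35 and 28, where 28.2% and 25.5% of all rows did. Of 876 alternative values of the 59 named rows tested, 814 kept their sign and their side of the threshold and 61 changed sign, each from a difference that had not passed. With median-ratio scaling these were EIF1 -0.031, EIF2S1 -0.075, EIF2S3 -0.065, EIF5 -0.13, EIF2B4 -0.011, EIF4A1 -0.12, the lower EIF4E2 row -0.11, EIF4EBP1 -0.12, EIF4EBP2 -0.076 and EEF1B2 -0.11. With a common sum they were EIF1 -0.0036, EIF2S1 -0.047, EIF2S3 -0.038, EIF5 -0.10, EIF4A1 -0.092, the lower EIF4E2 row -0.086, EIF4EBP1 -0.092, EIF4EBP2 -0.048 and EEF1B2 -0.083. With quantile normalization they were EIF1AX 0.0081, the lower EIF4E2 row -0.18, EIF4E3 -0.072, EIF4G2 0.0050, EIF4EBP1 -0.064 and GSPT2 -0.0082, and without microRNA rows EIF5 -0.0059, the lower EIF4E2 row -0.0017 and EIF4EBP1 -0.0015. With a library left out the ranges that crossed 0 were -0.0013 to 0.23 for EIF1, -0.19 to 0.079 for EIF1AX, -0.27 to 0.40 for EIF2S1, -0.21 to 0.36 for EIF2S3, -0.063 to 0.094 for EIF5, -0.41 to 0.22 for EIF2B2, -0.25 to 0.094 for EIF2AK1 and -0.21 to 0.047 for EIF3A. They were -0.052 to 0.020 for EIF3G, -0.27 to 0.045 for EIF3M, -0.010 to 0.058 for EIF4A1, -0.023 to 0.058 for the lower EIF4E2 row, -0.11 to 0.079 for EIF4G2, -0.26 to 0.29 for EIF4EBP1, -0.14 to 0.27 for EIF4EBP2 and -0.24 to 0.036 for EIF6. The rest were -0.22 to 0.097 for EEF1A1, -0.064 to 0.13 for EEF1B2, -0.16 to 0.14 for PAIP2, -0.25 to 0.17 for PAIP2B, -0.17 to 0.029 for TRIB3, -0.13 to 0.90 for MCTS1 and -0.83 to 0.031 for DENR. A group left with 1 library is assumed to vary like the other, and the cause of these changes was not tested. With 2 libraries a group and no read counts, small differences could not be resolved: the 95% interval reached a median of 0.33 to either side for member rows.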
